A study of Homo sapiens with 18 samples.

Results

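Messenger RNA levels of 44 genes of DNA replication licensing and of the replication fork were followed in PC3, a human line derived from prostate cancer. The genes were chosen by symbol from both deposited tables of normalised read counts, which list 20365 genes each, and all 44 were found in both. They encode the origin recognition complex (ORC1 to ORC6), the factors that load the helicase and their inhibitor (CDC6, CDT1, GMNN), the MCM helicase (MCM2 to MCM7), its activators (MCM10, CDC45, GINS1 to GINS4), DNA polymerases and primase, the sliding clamp and its loader, Okazaki fragment maturation, nucleotide supply, and the fork checkpoint and E2F regulators CLSPN, E2F1 and E2F2. The series holds 18 libraries in 6 groups of 3, in 2 experiments that were normalised separately. In the knockdown experiment, lentiviral short hairpin RNAs were directed at the mRNA of Elongin B (group EloB KD) or of Elongin C (group EloC KD), and Control KD cells were their reference, with all cells in RPMI with 10% FCS. In the peptide experiment, cells in 2.5% FCS received, all at the same micromolar dose, a BC-box peptide in its wild-type form (WT peptide) or its mutant form (Mutant peptide), or a scrambled peptide (Scrambled peptide), for 24 h. The labels give neither the hairpin and peptide sequences nor the number of hairpins or cell pools, nor the culture each replicate came from. The p-values therefore describe how far these libraries spread, which may be technical.

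Replication origins are licensed in G1, when the origin recognition complex, CDC6 and CDT1 load the MCM ring onto DNA, and geminin (GMNN) later blocks CDT1. In S phase CDC45 and the GINS complex join MCM to form the CMG helicase, behind which the polymerases, the PCNA clamp and its RFC loader copy both strands, and many of these genes are transcribed under E2F factors at the entry into S phase. Elongin B and Elongin C form the adaptor of cullin ubiquitin ligases, whose receptors bind it through a BC-box; 1 such receptor, LRR1, directs CUL2 to MCM7 in worm, frog and human cells and so removes CMG from DNA when forks terminate. These are functions of the proteins, whereas the values here are mRNA levels in bulk samples, in which fewer cells in S phase and less mRNA per cell cannot be told apart.

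The promoters are shown first because shared sequence is what the choice of genes by symbol did not use. RefSeq promoter windows (GRCh38.p14, from 250 bases before to 50 after a gene's start) were found for 40 of the 44 genes. They were searched on both strands for the E2F words TTTCCCGC, TTTCGCGC, TTTGCCGC and TTTGGCGC, none of which contains another motif searched. At least 1 E2F word lay in a window of 22 of the 40 genes (55.0%), against 706 of 11030 genes tested in the knockdown experiment that had a window (6.40%) and 1090 of the 27305 genes with a window in the RefSeq table (3.99%). The CCAAT box was found in 24 of the 40 (60.0%), against 43.6% of the tested genes, and the CHR words TTTGAA and TTCGAA, typical of G2/M genes, in 2 of the 40 (MCM6 and RRM1, 5.0%), against 16.1%. A match is a run of letters and not a bound site, and no match says only that these letters are not in the window. The windows below are of genes on which the results turn, with E2F words in capitals: MCM3, MCM6 and MCM7, which fell in EloC KD; GINS3, which rose there; and ORC2 and ORC3, which fell in EloB KD. MCM3 is at chr6:52284693-52284992, minus strand, MCM6 at chr2:135876394-135876693, minus strand, and MCM7 at chr7:100101348-100101647, minus strand, the 1 of its 3 windows that holds a word. GINS3 is at chr16:58392221-58392520, plus strand, ORC2 at chr2:200963611-200963910, minus strand, and ORC3 at chr6:87589885-87590184, plus strand.
MCM3: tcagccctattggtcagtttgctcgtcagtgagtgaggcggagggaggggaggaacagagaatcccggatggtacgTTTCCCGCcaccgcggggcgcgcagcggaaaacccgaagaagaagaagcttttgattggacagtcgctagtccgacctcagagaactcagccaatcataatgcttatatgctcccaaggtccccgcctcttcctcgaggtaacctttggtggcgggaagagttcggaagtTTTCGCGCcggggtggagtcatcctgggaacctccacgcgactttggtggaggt
MCM6: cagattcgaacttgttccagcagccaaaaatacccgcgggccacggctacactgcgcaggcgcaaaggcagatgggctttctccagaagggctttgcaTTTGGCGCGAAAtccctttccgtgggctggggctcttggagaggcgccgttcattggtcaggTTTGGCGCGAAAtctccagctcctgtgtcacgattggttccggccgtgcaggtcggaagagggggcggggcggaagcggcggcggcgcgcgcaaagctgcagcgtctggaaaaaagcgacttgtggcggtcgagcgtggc
MCM7: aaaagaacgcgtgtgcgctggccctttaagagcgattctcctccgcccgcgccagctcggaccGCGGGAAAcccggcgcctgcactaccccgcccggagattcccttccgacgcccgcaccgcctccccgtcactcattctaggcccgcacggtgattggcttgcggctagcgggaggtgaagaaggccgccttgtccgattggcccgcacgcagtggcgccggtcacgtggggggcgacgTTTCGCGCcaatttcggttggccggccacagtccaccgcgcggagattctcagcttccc
GINS3: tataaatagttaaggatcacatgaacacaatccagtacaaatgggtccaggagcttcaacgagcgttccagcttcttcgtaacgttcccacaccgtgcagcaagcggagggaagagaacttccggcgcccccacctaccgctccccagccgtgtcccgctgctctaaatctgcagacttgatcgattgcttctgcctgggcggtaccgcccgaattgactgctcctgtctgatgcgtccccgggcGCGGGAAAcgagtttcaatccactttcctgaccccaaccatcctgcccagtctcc
ORC2: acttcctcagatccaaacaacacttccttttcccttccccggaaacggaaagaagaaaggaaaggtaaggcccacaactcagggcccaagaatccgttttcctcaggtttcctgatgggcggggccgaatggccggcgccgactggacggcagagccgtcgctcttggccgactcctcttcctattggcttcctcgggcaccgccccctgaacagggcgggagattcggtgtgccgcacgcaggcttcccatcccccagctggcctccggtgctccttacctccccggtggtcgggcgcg
ORC3: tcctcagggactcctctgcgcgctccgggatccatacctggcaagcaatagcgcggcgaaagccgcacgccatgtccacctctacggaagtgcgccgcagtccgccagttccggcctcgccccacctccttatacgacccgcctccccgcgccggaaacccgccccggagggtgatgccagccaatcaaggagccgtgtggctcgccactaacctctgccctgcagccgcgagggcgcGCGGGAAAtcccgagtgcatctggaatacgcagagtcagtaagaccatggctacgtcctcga
In MCM6 a TTTGGCGC overlaps the reverse complement of TTTCGCGC, GCGCGAAA, and the same overlapping pair occurs again downstream in the window. ORC2 holds no E2F word in its window, and neither do ORC4, RFC1, PRIM2 and RFC5. E2F words were thus found among genes that fell in EloC KD (MCM3, MCM6, MCM7, GINS1, TYMS) and in GINS3, which rose. GINS4, which also fell there, was 1 of the 4 genes without a window, with MCM4, MCM5 and POLD3, and was not searched.

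The knockdown libraries held 40.3 to 57.2 M counted reads and the peptide libraries 31.7 to 34.7 M, so that counting error was small beside the differences between replicates. In a check of the labels, ELOB had a normalised count of 537 ± 59.0 in EloB KD and 3898 ± 1177 in Control KD (SD, n = 3 each), and ELOC 515.7 ± 36.6 in EloC KD and 4480 ± 355 in Control KD. The PC3 markers KRT8, KRT18, VIM and CD44 were present in every library, the 4 leukocyte markers summed to at most 22.1, and the 5 prostate luminal markers to at most 451.4, with KLK3 at 0 throughout. The strand setting of the authors' counting is not given in the sources used here, and exons of 15 of the 44 genes overlap a gene on the other strand, among them TYMS (1150 bases, with ENOSF1 and TYMSOS), GINS4 (1290 bases) and MCM7 (392 bases, with AP4M1). Exons of 6 genes overlap another gene on the same strand, by most in POLA2 (2012 bases) and RRM2 (1077 bases). The others are POLD1 (426 bases), PRIM1 (395 bases), POLD3 (123 bases) and FEN1 (49 bases). The counts of these genes are therefore less certain.

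The replicates of the knockdown groups did not hold the replication genes at 1 level, as the plot of scores by library shows. EloB KD replicate 1 was the lowest library of its group for 44 of the 44 genes. The mean log2 level of the 44 genes, less its Control KD mean, was -0.55 in EloB KD replicate 1 and 0.12 and 0.08 in replicates 2 and 3, against -0.26, 0.02 and 0.23 in Control KD replicates 1 to 3. In EloC KD the scores were -0.24, -0.23 and 0.03, with replicate 3 the highest for 34 genes. Control KD replicate 1 was the lowest of its group for 40 genes and replicate 3 the highest for 37. The median log2 SD within a group was 0.40 for the 44 genes and 0.15 for all genes tested in EloB KD, 0.19 and 0.16 in EloC KD, and 0.23 and 0.16 in Control KD. In the peptide groups the medians of the 44 genes were at or below those of all genes, at 0.07 and 0.09 with the WT peptide, 0.10 and 0.10 with the Mutant peptide, and 0.07 and 0.10 with the Scrambled peptide. A score of 23 G2/M genes moved along with the replication score in the knockdown libraries, at -0.78, 0.18 and 0.11 in EloB KD, -0.33, -0.44 and -0.08 in EloC KD, and -0.23, 0.03 and 0.20 in Control KD. Same-numbered libraries deviated together across all genes, so counts of called genes are also given with the replicate number as a block.

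**Figure D1:**
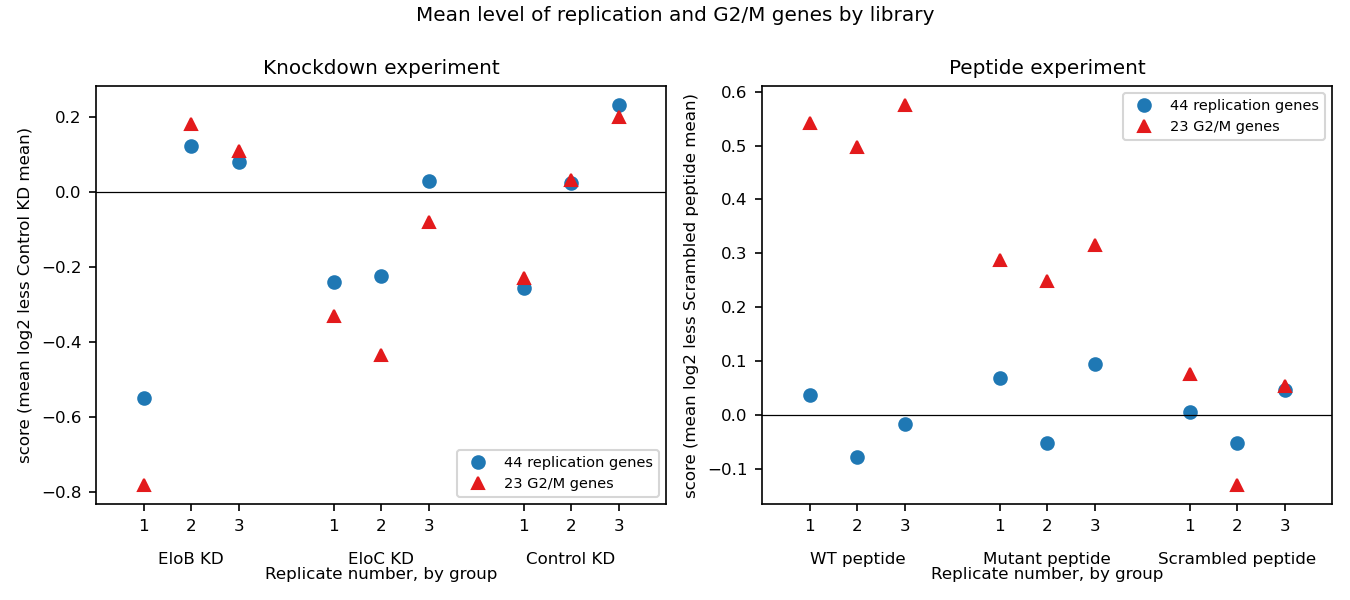
Mean log2 level of the 44 replication genes (circles) and of 23 G2/M genes (triangles) in every library, less the mean of the Control KD or Scrambled peptide libraries; the y axis is in log2 units and the x axis gives the replicate number by group. EloB KD replicate 1 is the lowest library of the knockdown experiment on both scores, and the G2/M score of the peptide libraries is highest with the WT peptide while the replication score stays between -0.08 and 0.10.

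In EloB KD few replication genes were called against Control KD. Of the 44 genes, 0 were higher and 2 were lower (ORC2 and ORC3) at an adjusted p under 0.05 in limma, where 9.34% of the 13764 genes tested were higher and 11.2% lower. At an unadjusted p under 0.05 there were 3, and edgeR and DESeq2 on the recovered reads each gave 0 higher and 2 lower. The calls thus covered 4.55% of the replication genes and 20.5% of all genes tested. Within EloB KD the 44 genes also spread more than all genes (median log2 SD 0.40 and 0.15). The 3 knockdown groups were fitted with 1 shared estimate of the spread, so this spread enters the tests of EloC KD too. Its part in the shares called was not tested. The median log2 fold change was -0.11 over the 44 genes and 0.00 over all genes, and without EloB KD replicate 1 it was 0.11 over the 44, with 33 of them above 0 in place of 12. Without Control KD replicate 3 the median was 0.02, with 24 above 0. With the replicate block 1 was higher (GMNN) and 4 were lower (ORC2, ORC3, MCM2 and RRM2), where 17.5% of all genes were higher and 18.8% lower.

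In EloC KD more of them moved, in both directions. Of the 44 genes, 4 were higher (ORC4, GINS3, PRIM2, RFC1) and 6 lower (MCM3, MCM6, MCM7, GINS1, GINS4, TYMS), where 21.3% of all genes were higher and 21.2% lower. The calls covered 22.7% of the replication genes and 42.5% of all genes. In a fit of only EloC KD and Control KD they covered 25.0% and 41.5%. The median log2 fold change was -0.10 over the 44 genes, with 30 below 0, and 0.01 over all genes. Its sign turned without Control KD replicate 3, with 0.06 and 25 genes above 0, and without EloC KD replicate 2 it was -0.04; over all fits with 1 library left out it ran from -0.28 to 0.06. Under the replicate block 8 were higher and 12 lower, where 28.7% and 28.3% of all genes were, and ORC3, ORC5, GMNN and POLD3 joined the higher and MCM4, GINS2, PCNA, LIG1, RRM2 and E2F2 the lower genes. With replicate 1 of all 3 groups left out there were 4 higher and 11 lower, where 17.8% and 17.5% of all genes were; in total 34.1% of the replication genes and 35.3% of all genes were called. Summed over 3 fibroblast markers (COL1A1, COL1A2, PDGFRB) levels were 575.3 to 931.8 in EloB KD, 2038 to 2570 in EloC KD and 648.1 to 870.5 in Control KD, and over 3 endothelial markers (PECAM1, CDH5, VWF) 2032 to 2256, 1251 to 1420 and 1298 to 1849. Only 1 of the 3 endothelial markers had a mean of at least 10 in EloB KD, and 2 did in EloC KD and in Control KD. All 3 fibroblast markers did in each of these groups. The part of these markers in the result was not tested. Both knockdowns share the Control KD libraries, so their values are given side by side and no overlap between them is read.

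**Figure D2:**
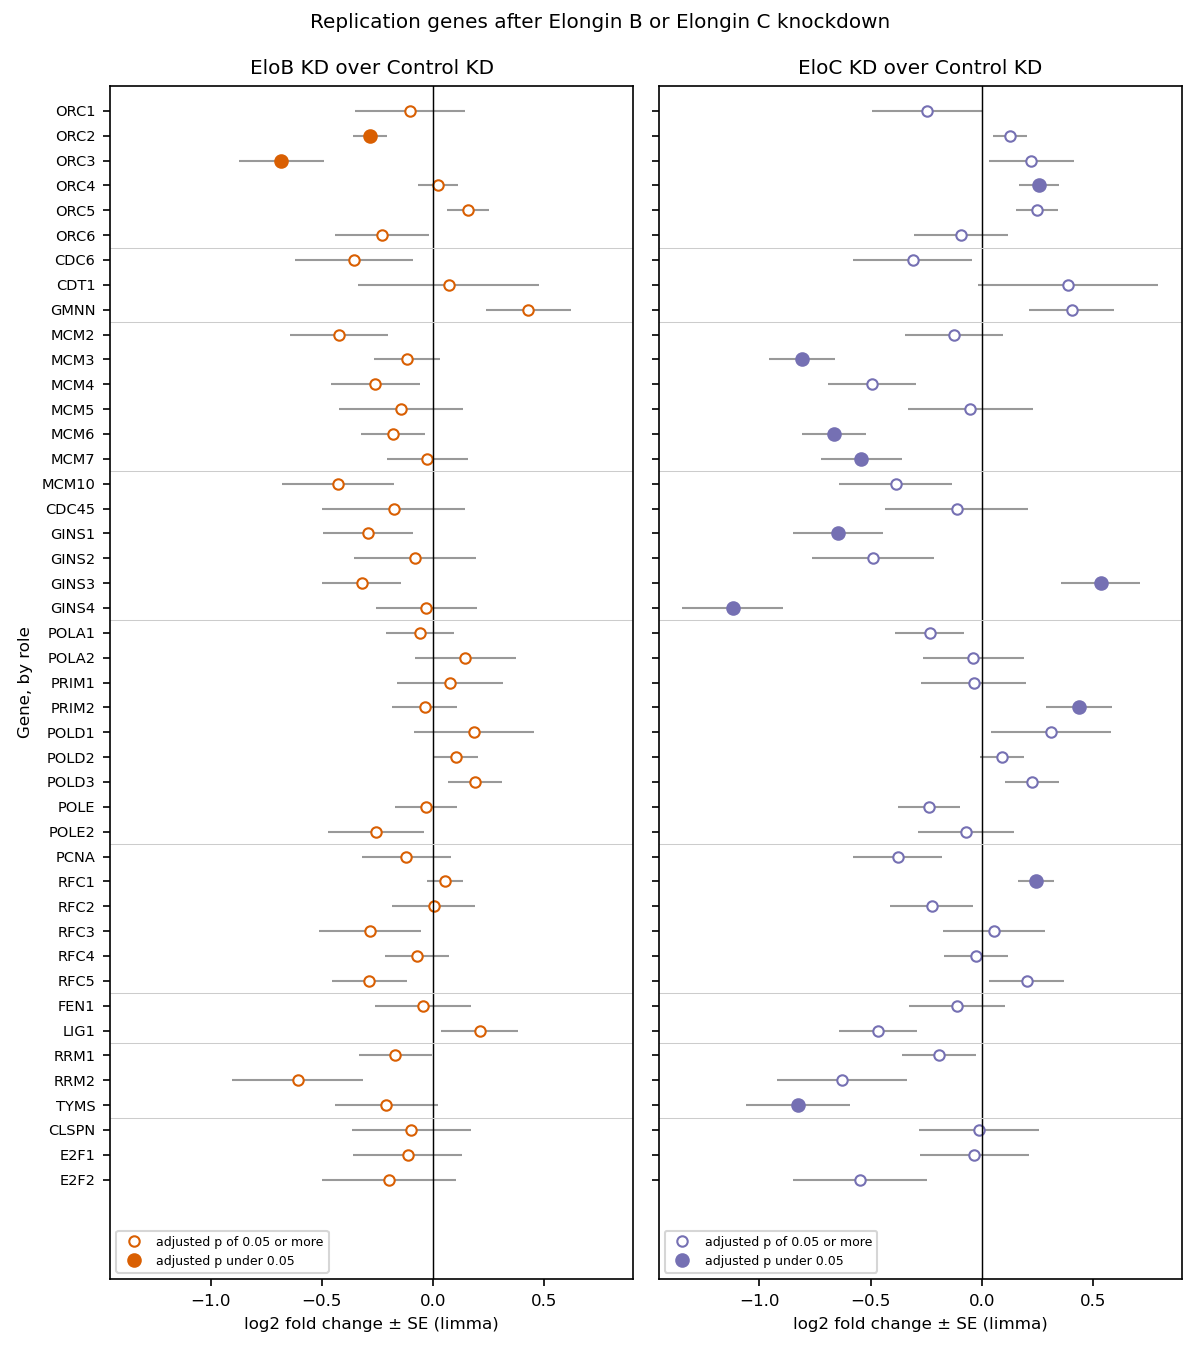
Log2 fold change with its standard error (x axis, limma) for each of the 44 genes (y axis, by role) in EloB KD over Control KD and EloC KD over Control KD, with n = 3 libraries per group; filled points have an adjusted p under 0.05. The filled points are ORC2 and ORC3, both below 0, in EloB KD, and in EloC KD 6 genes below 0, GINS4 the lowest at -1.12, and 4 above 0.

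The difference between the knockdowns was tested directly. Between EloB KD and EloC KD 5 genes were higher in EloB KD (MCM3, MCM6, MCM7, GINS4, LIG1) and 5 lower (ORC2, ORC3, GINS3, PRIM2, RFC5), where 22.3% of all genes were higher and 23.8% lower. The median over the 44 genes was -0.01, with 22 on either side of 0; with 1 library left out it ran from -0.13 without EloB KD replicate 2 to 0.28 without EloB KD replicate 1, where 32 genes were above 0. With the replicate block 8 were higher and 8 lower, where 28.7% and 30.7% of all genes were. GINS1, GINS2 and TYMS joined the higher genes in that fit, and ORC4, MCM2 and RFC1 the lower genes. Without EloB KD replicate 1 the counts were 12 higher and 3 lower, where 19.6% and 20.8% of all genes were (34.1% of the replication genes and 40.4% of all genes called in total); GINS1, GINS2, TYMS, PCNA, RFC2, MCM4 and POLA1 were then also higher in EloB KD, and PRIM2 and RFC5 were no longer called lower.

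**Figure D3:**
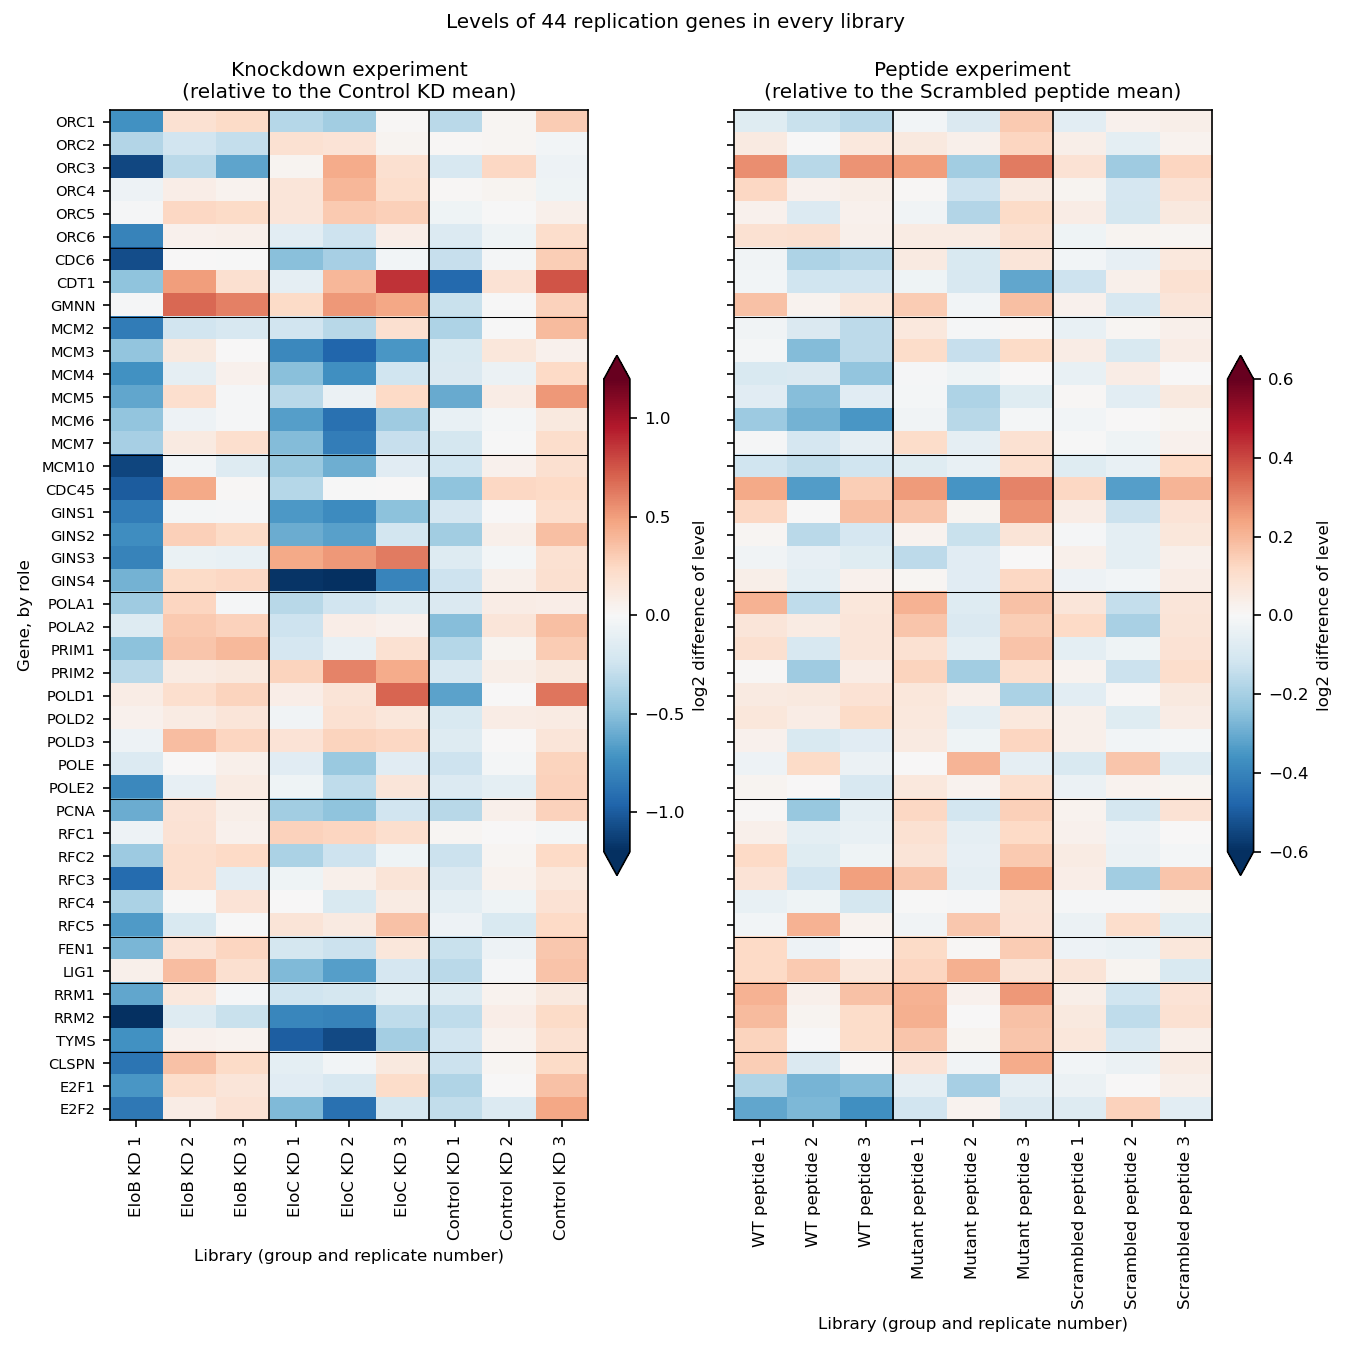
Log2 level of each of the 44 genes (rows, by role) in each of the 18 libraries (columns, by group and replicate), less the mean of the Control KD libraries (left) or the Scrambled peptide libraries (right); red is higher and blue lower, and values beyond the ends of a colour bar take its end colour. The left panel shows the dark column of EloB KD replicate 1 and the MCM3, MCM6, GINS1, GINS4 and TYMS rows of EloC KD; the right panel, on a narrower scale, shows ORC3 and CDC45 low in replicate 2 of each group.

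Of the origin recognition complex, which marks origins and recruits CDC6, ORC2 and ORC3 fell in EloB KD. ORC2 (chromosome 2, 200908973 to 200963680, minus strand; positions from GENCODE 29 on GRCh38) had normalised counts of 5204, 5664 and 5448 in EloB KD, 7526, 7425 and 6800 in EloC KD, and 6686, 6725 and 6470 in Control KD. All EloB KD libraries lay below all others. The log2 fold change was -0.29 ± 0.08 in EloB KD (1.22-fold, adjusted p = 0.0246) and 0.13 ± 0.08 in EloC KD (adjusted p = 0.199), and EloB KD over EloC KD gave -0.41 ± 0.08 (adjusted p = 0.00145). ORC3 (chromosome 6, 87590067 to 87667453, plus strand) had 1457, 2487 and 2006 in EloB KD, 3178, 4237 and 3543 in EloC KD, and 2728, 3706 and 2976 in Control KD. Again the EloB KD libraries did not overlap either group, and replicate 2 was the highest in each. The log2 fold change of ORC3 was -0.68 ± 0.19 in EloB KD (1.61-fold, adjusted p = 0.0288) and 0.22 ± 0.19 in EloC KD (adjusted p = 0.370), with -0.90 ± 0.19 between the knockdowns (adjusted p = 0.00299).

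The calls of ORC2 and ORC3 against EloC KD held with any 1 library left out. Those against Control KD did not: ORC2 was lost without EloB KD replicate 1 or 3 or Control KD replicate 1 or 2, and ORC3 without EloB KD replicate 1 or 3 or Control KD replicate 2 or 3, with adjusted p of up to 0.0802 and 0.101. Without EloB KD replicate 1 the values were -0.25 (adjusted p = 0.0684) and -0.48 (adjusted p = 0.0861). ORC4, a subunit of the AAA+ ATPase family, rose in EloC KD, with 3122, 3429 and 3354 in EloB KD, 3603, 4296 and 3769 in EloC KD, and 3287, 3329 and 3134 in Control KD. The EloC KD libraries lay above all Control KD libraries (log2 fold change 0.26 ± 0.09, 1.19-fold, adjusted p = 0.0396), and the call was lost without any 1 of the libraries except EloC KD replicate 1 (adjusted p up to 0.144). ORC1, ORC5 and ORC6 were not called in any comparison; ORC5 had a log2 fold change of 0.25 ± 0.09 in EloC KD (adjusted p = 0.0575, and 0.0111 with the replicate block).

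CDC6 and CDT1, which load the MCM ring, and GMNN, which inhibits CDT1, were not called in either knockdown. GMNN had 1551, 2519 and 2391 in EloB KD, 1836, 2245 and 2162 in EloC KD, and 1303, 1559 and 1894 in Control KD. Each knockdown library was above the Control KD library of the same number, although the groups overlapped. The log2 fold change was 0.43 ± 0.19 in EloB KD (adjusted p = 0.143) and 0.40 ± 0.19 in EloC KD (adjusted p = 0.112). With the replicate block these were called, at 0.00981 and 0.00740, and so was EloB KD without its replicate 1, at 0.65 (adjusted p = 0.0240). CDT1 spread most of the 44 genes within Control KD and within EloC KD (CDC45 did within EloB KD), with 356.9, 704 and 568.1 in EloB KD, 463.1, 656 and 910.5 in EloC KD, and 260, 562.9 and 843.7 in Control KD. In each group its lowest library was replicate 1, and no difference between groups exceeded that spread.

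Of the MCM helicase, 3 of the 6 subunits fell in EloC KD and stood higher in EloB KD against EloC KD, and 0 were called in EloB KD over Control KD. MCM3 (chromosome 6, 52264009 to 52284881, minus strand) had 6689, 10031 and 9325 in EloB KD, 5429, 4786 and 5704 in EloC KD, and 8170, 10162 and 9610 in Control KD. All EloC KD libraries lay below all others. MCM3 fell by 0.81 ± 0.15 on the log2 scale in EloC KD (1.75-fold, adjusted p = 0.00161), and its value in EloB KD was -0.12 ± 0.15 (adjusted p = 0.620). EloB KD over EloC KD gave 0.69 ± 0.15 (adjusted p = 0.00342), and both calls held with any 1 library left out.

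MCM6 (chromosome 2, 135839626 to 135876426, minus strand) had 5420, 7182 and 7434 in EloB KD, 4747, 4030 and 5568 in EloC KD, and 7053, 7379 and 8128 in Control KD. EloC KD did not overlap Control KD but reached the low EloB KD replicate 1. MCM6 fell by 0.66 ± 0.14 in EloC KD (1.58-fold, adjusted p = 0.00401), a call that held with any 1 library left out, and had -0.18 ± 0.14 in EloB KD (adjusted p = 0.402). EloB KD was higher than EloC KD by 0.48 ± 0.14 (adjusted p = 0.0189), which was lost without EloB KD replicate 2 or 3 or EloC KD replicate 2 (adjusted p up to 0.0759).

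MCM7 (chromosome 7, 100092728 to 100101940, minus strand), the subunit that LRR1 and CUL2 ubiquitylate, had 9021, 12795 and 13689 in EloB KD, 8278, 6670 and 9824 in EloC KD, and 10271, 11834 and 13765 in Control KD. The EloC KD libraries lay below all Control KD libraries, the nearest being EloC KD replicate 3 and Control KD replicate 1. MCM7 fell by 0.54 ± 0.18 in EloC KD (1.46-fold, adjusted p = 0.0341), a call lost without EloC KD replicate 1 or 2 or Control KD replicate 2 or 3 (adjusted p up to 0.133). In EloB KD it had -0.03 ± 0.18 (adjusted p = 0.934), and EloB KD over EloC KD gave 0.51 ± 0.18 (adjusted p = 0.0395), lost without EloB KD replicate 2 or 3 or EloC KD replicate 1 or 2 (adjusted p up to 0.148). Of the other subunits, MCM4 did not overlap Control KD in EloC KD (-0.49 ± 0.20, adjusted p = 0.0677, and 0.00759 with the replicate block). MCM2 had -0.42 ± 0.22 in EloB KD (adjusted p = 0.205, and 0.0172 with the block) and -0.13 ± 0.22 in EloC KD, and MCM5 had -0.14 and -0.05 (adjusted p = 0.754 and 0.898). The 6 subunits form 1 ring, yet in EloC KD their log2 fold changes ran from -0.81 to -0.05.

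The GINS complex, whose 4 subunits join the MCM ring with CDC45, was split in EloC KD. GINS4 had 1360, 2366 and 2398 in EloB KD, 893.6, 771.8 and 1162 in EloC KD, and 1696, 2102 and 2310 in Control KD. The EloC KD libraries lay below all others. GINS4 had the largest change among the 44 genes in any comparison, a fall of 1.12 ± 0.23 in EloC KD (2.17-fold, adjusted p = 0.00281), against -0.03 ± 0.23 in EloB KD (adjusted p = 0.940). EloB KD over EloC KD gave 1.09 ± 0.23 (adjusted p = 0.00285), and both calls held with any 1 library left out.

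GINS3 (chromosome 16, 58295080 to 58406144, plus strand) went the other way. It had 1252, 2065 and 2047 in EloB KD, 2985, 3130 and 3357 in EloC KD, and 1954, 2144 and 2469 in Control KD. The EloC KD libraries lay above all others. GINS3 rose by 0.53 ± 0.18 in EloC KD (1.45-fold, adjusted p = 0.0325) and had -0.32 ± 0.18 in EloB KD (adjusted p = 0.230), with -0.86 ± 0.18 between the knockdowns (adjusted p = 0.00277). The call between the knockdowns held with any 1 library left out, and the call against Control KD only without Control KD replicate 3, with adjusted p up to 0.0978. GINS1 (chromosome 20, 25407727 to 25452628, plus strand) had 1592, 2788 and 2815 in EloB KD, 1766, 1681 and 2018 in EloC KD, and 2465, 2849 and 3270 in Control KD. EloC KD lay below all Control KD libraries, while EloB KD replicate 1 was lower still. GINS1 fell by 0.65 ± 0.20 in EloC KD (1.56-fold, adjusted p = 0.0253), a call lost without EloC KD replicate 1 or 2 or Control KD replicate 2 or 3 (adjusted p up to 0.0814). GINS2 had -0.49 ± 0.27 in EloC KD (adjusted p = 0.175, and 0.0232 with the replicate block). CDC45, the third part of CMG, and MCM10, which activates it, were not called in any comparison.

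**Figure D4:**
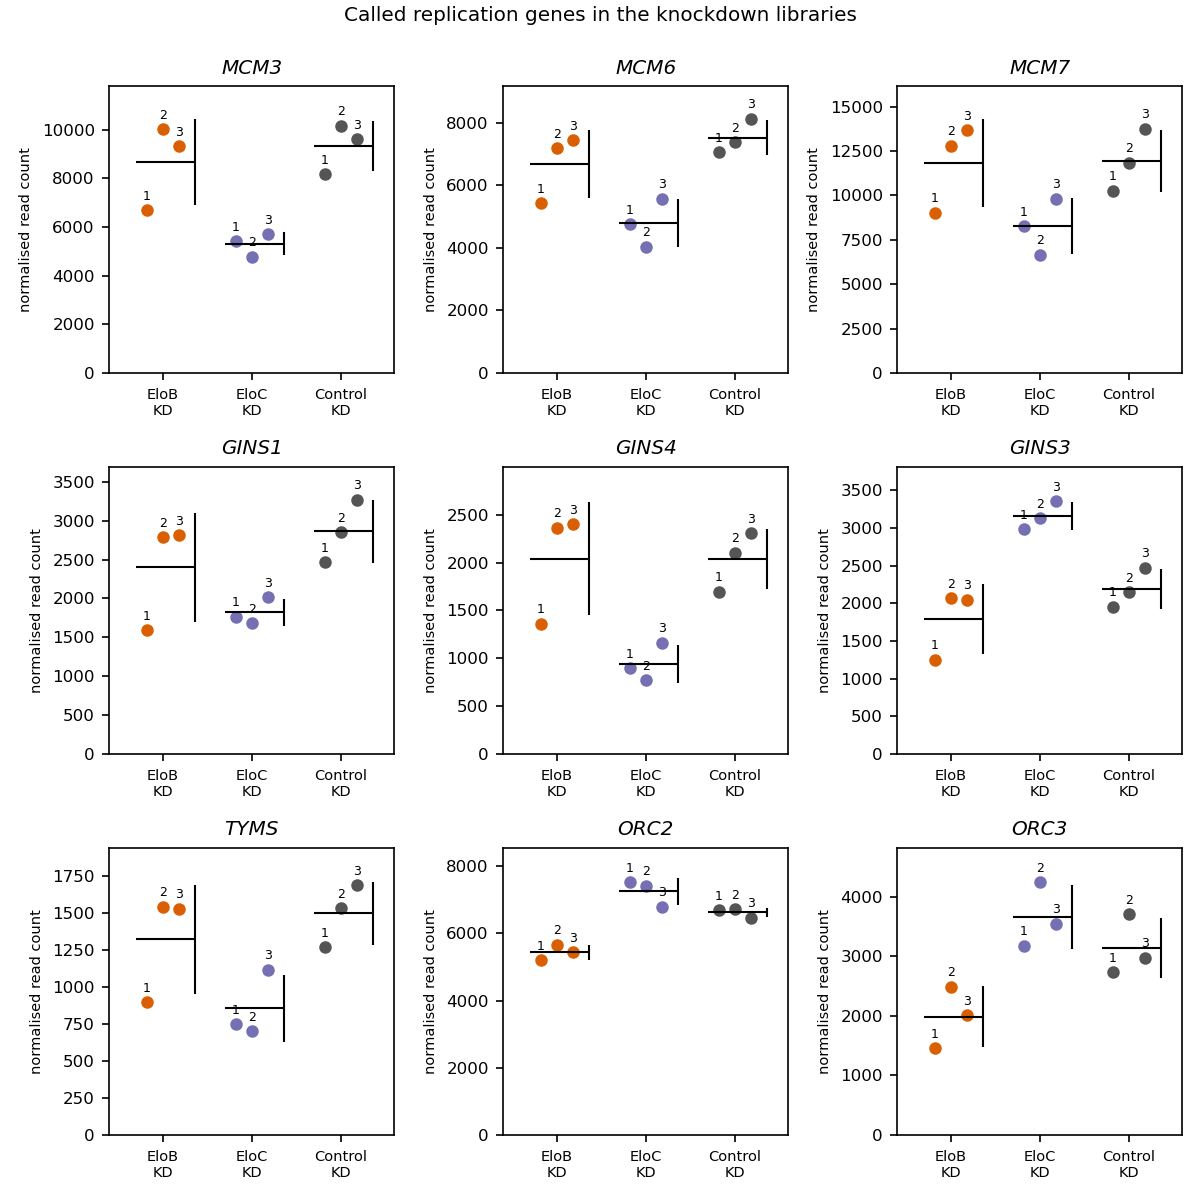
Normalised read counts (y axis, from 0) of 9 genes called in a knockdown, in EloB KD, EloC KD and Control KD; points are libraries with their replicate number, horizontal lines are means and vertical lines ± SD (n = 3). MCM3, GINS4 and GINS3 in EloC KD and ORC2 and ORC3 in EloB KD stand apart from both other groups, and EloB KD replicate 1 is the low point of its group throughout.

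Against Control KD 20.5% of all genes were called in EloB KD and 42.5% in EloC KD. Among the 9 polymerase and primase genes, only PRIM2, the large primase subunit, was called against Control KD. It had 870.3, 1167 and 1184 in EloB KD, 1316, 1652 and 1483 in EloC KD, and 953.4, 1150 and 1188 in Control KD. All EloC KD libraries lay above all others. PRIM2 rose by 0.44 ± 0.15 in EloC KD (1.35-fold, adjusted p = 0.0351), lost without EloC KD replicate 2 or 3 or Control KD replicate 1 or 2 (adjusted p up to 0.124). EloB KD over EloC KD gave -0.47 ± 0.15 (adjusted p = 0.0227), lost without EloB KD replicate 1 or EloC KD replicate 2 or 3 (adjusted p up to 0.0845). The other 8 genes ran from -0.26 to 0.19 in EloB KD on the log2 scale and from -0.24 to 0.31 in EloC KD, POLD2 and POLA1 among them.

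Of the clamp and its loader, PCNA was not called, with -0.12 ± 0.20 in EloB KD and -0.38 ± 0.20 in EloC KD (adjusted p = 0.153, and 0.0251 with the replicate block). RFC1, the large loader subunit, had 4891, 5742 and 5302 in EloB KD, 6200, 6100 and 5858 in EloC KD, and 5191, 5119 and 5006 in Control KD. The EloC KD libraries lay above all others, and RFC1 rose there by 0.25 ± 0.08 (1.19-fold, adjusted p = 0.0315), a call that held only without EloC KD replicate 3 (adjusted p up to 0.0907). RFC5 had 1600, 2253 and 2549 in EloB KD, 2839, 2757 and 3254 in EloC KD, and 2456, 2255 and 3021 in Control KD. EloB KD lay below EloC KD without overlap (-0.49 ± 0.17, adjusted p = 0.0353), which was lost without EloB KD replicate 1 (-0.30, adjusted p = 0.115) or any EloC KD library. For DNA ligase 1 (LIG1), which seals Okazaki fragments, the counts were 1464, 1824 and 1611 in EloB KD, 972.7, 890.7 and 1220 in EloC KD, and 1124, 1394 and 1779 in Control KD. The 2 knockdowns did not overlap, and Control KD spanned the gap between them. LIG1 in EloB KD exceeded EloC KD by 0.67 ± 0.17 (1.60-fold, adjusted p = 0.00929) with any 1 library left out, while EloC KD over Control KD gave -0.47 ± 0.17 (adjusted p = 0.0523, and 0.0102 with the replicate block). FEN1, the flap nuclease, was not called.

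Of 3 nucleotide supply genes, 1 was called lower in EloC KD, where 21.2% of all genes were lower. TYMS (chromosome 18, 657604 to 673578, plus strand), thymidylate synthase, had 900.1, 1545 and 1530 in EloB KD, 751.1, 702.1 and 1120 in EloC KD, and 1271, 1535 and 1691 in Control KD. The EloC KD libraries lay below all Control KD libraries. TYMS fell by 0.83 ± 0.23 there (1.77-fold, adjusted p = 0.0155), a call lost without EloC KD replicate 1 or 2 or Control KD replicate 3 (adjusted p up to 0.0633). It had -0.21 ± 0.23 in EloB KD, and EloB KD over EloC KD gave 0.62 ± 0.23 (adjusted p = 0.0506). RRM2, the regulated subunit of ribonucleotide reductase, had -0.61 ± 0.29 in EloB KD and -0.63 ± 0.29 in EloC KD (adjusted p = 0.171 and 0.108), and both were called with the replicate block (0.0247 and 0.0134). RRM2 had 4675, 11213 and 10378 in EloB KD and 10060, 13154 and 14617 in Control KD, so each EloB KD library was below the Control KD library of its number, by most in replicate 1, while the groups overlapped. E2F1 was not called in either knockdown, E2F2 had -0.55 ± 0.30 in EloC KD (adjusted p = 0.168, and 0.0410 with the block), and CLSPN, the checkpoint adaptor Claspin, had -0.10 and -0.01.

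Per kilobase of annotated exon, levels of the 44 genes differed widely within a sample. In EloB KD, EloC KD and Control KD the highest was PCNA, with mean normalised counts per kb of 5698, 4659 and 6130, and the lowest E2F2, with 52.8, 40.2 and 59.4. RRM1, MCM7 and MCM3 followed PCNA in Control KD, with 2848, 2726 and 2552 per kb, while the GINS subunits there lay between 372 and 703 per kb. With the WT, Mutant and Scrambled peptide PCNA was again the highest (7576, 8390 and 8074 per kb) and the lowest was POLA2 (77.8, 78.6 and 74.7). E2F2 had 90.4, 108.0 and 112.9 per kb there. Because 2012 of the 5726 exon bases of POLA2 overlap AP000944.2 on the same strand, its rank is less certain. The experiments differ in serum and were normalised separately, so levels are not compared between them.

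The WT peptide changed 1 of the 44 genes against the Scrambled peptide. There 0 genes were higher and 1 lower (MCM6) in limma, where 0.839% of the 13105 genes tested were higher and 0.595% lower. At an unadjusted p under 0.05 there were 4, edgeR gave 0 higher and 1 lower, and DESeq2 gave 0 and 3 (MCM6, E2F1 and E2F2), where it called 1.36% of all genes lower. The median log2 fold change was 0.00 over the 44 genes and over all genes, and -0.04 to 0.03 over the 44 with 1 library left out. With the replicate block 3 were higher (RRM1, RRM2, ORC3) and 6 lower (MCM3, MCM4, MCM5, MCM6, E2F1, E2F2), where 7.96% and 8.23% of all genes were. In the same comparison 19 of 23 G2/M genes were higher and 0 lower (all 23 higher when blocked), with a median of 0.49, and their score was 0.54, 0.50 and 0.58 in the WT peptide libraries, 0.29, 0.25 and 0.32 in the Mutant peptide libraries and 0.08, -0.13 and 0.05 in the Scrambled peptide libraries. The replication score was 0.04, -0.08 and -0.02 with the WT peptide, 0.07, -0.05 and 0.10 with the Mutant peptide, and 0.00, -0.05 and 0.05 with the Scrambled peptide. The part of this G2/M difference in the MCM6 result was not tested.

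MCM6 had normalised counts of 7979, 7619 and 7262 with the WT peptide, 9144, 8252 and 9202 with the Mutant peptide, and 9175, 9279 and 9347 with the Scrambled peptide. The WT peptide libraries lay below all others. MCM6 fell by 0.28 ± 0.05 on the log2 scale against the Scrambled peptide (95% interval -0.40 to -0.17, 1.22-fold, adjusted p = 0.0319). The call was lost with any 1 of the 6 libraries left out (adjusted p 0.0695 to 0.159), and it stood with replicate 2 of all 3 groups left out. E2F1, an activator of S-phase transcription, had 4161, 3887 and 3936 with the WT peptide, 4544, 4111 and 4546 with the Mutant peptide, and 4597, 4729 and 4820 with the Scrambled peptide. The WT peptide lay below the Scrambled peptide without overlap but reached the Mutant peptide libraries (-0.24 ± 0.05 against Scrambled, adjusted p = 0.0555, and 0.000767 with the block). E2F2, a related activator, had 495.4, 509.1 and 475.7 with the WT peptide, 566.8, 622.5 and 578.6 with the Mutant peptide, and 582.2, 676.5 and 588.9 with the Scrambled peptide. Its WT peptide libraries lay below all others (-0.32 ± 0.08 against Scrambled, adjusted p = 0.0884, and 0.00236 with the block). All 6 MCM genes had negative values in the WT peptide, from -0.28 to -0.06.

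**Figure D5:**
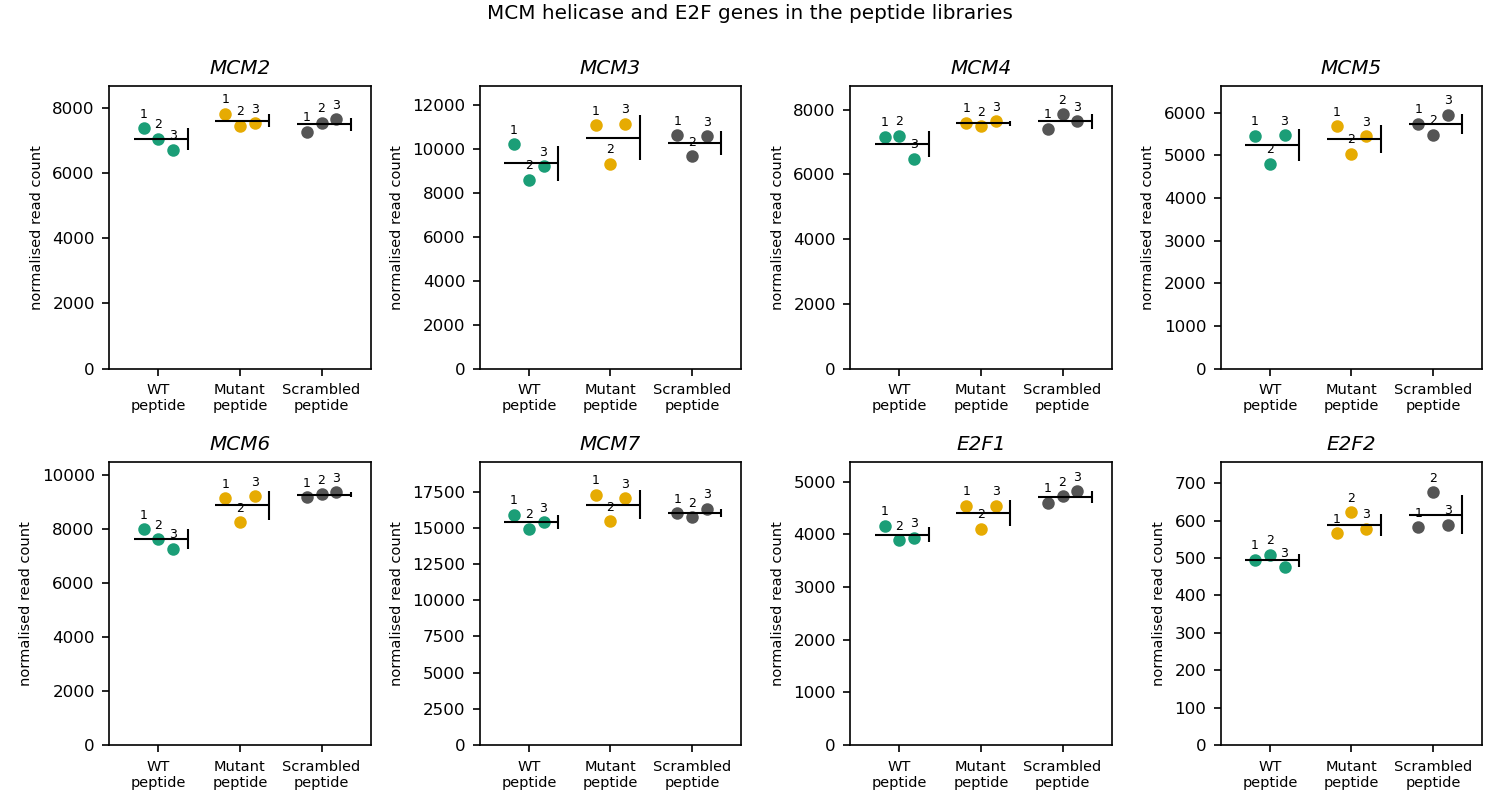
Normalised read counts (y axis, from 0) of the 6 MCM helicase genes and of E2F1 and E2F2 with the WT, Mutant and Scrambled peptide; points are libraries with their replicate number, horizontal lines are means and vertical lines ± SD (n = 3). MCM6 is between 7262 and 7979 with the WT peptide, below every Mutant and Scrambled peptide library, and the other MCM genes differ by less.

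The Mutant peptide changed none of the 44 genes against the Scrambled peptide in limma, with 0 higher and 0 lower, where 0.0% of all genes were higher and 0.0% lower. At an unadjusted p under 0.05 there was 1, and edgeR and DESeq2 gave 0. With the replicate block 3 were higher (GINS1, RRM1, RRM2) and 0 lower, where 3.72% and 4.59% of all genes were. The median was 0.05, with 32 of the 44 above 0, and 0.00 over all genes. It was 0.02 without Mutant peptide replicate 3 (26 above 0) or Scrambled peptide replicate 2 (27 above 0), 0.03 without Mutant peptide replicate 1, and 0.09 without Mutant peptide replicate 2. RRM1, the large subunit of ribonucleotide reductase, had 11961, 10588 and 11692 with the WT peptide, 11953, 10528 and 12412 with the Mutant peptide, and 10614, 9528 and 10965 with the Scrambled peptide. Each library with either BC-box peptide was above the Scrambled peptide library of the same number, although the groups overlapped. For the Mutant peptide this gave 0.16 ± 0.08 (95% interval -0.01 to 0.34, adjusted p = 0.599).

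Between the WT peptide and the Mutant peptide, given at the same dose and time, 0 genes were higher and 0 lower in limma, where 0.0% of all genes were higher and 0.0% lower. At an unadjusted p under 0.05 there were 5, edgeR gave 0 and DESeq2 1 lower (MCM6), where it called 0.0866% of all genes lower. Under the block 0 were higher and 4 lower (MCM3, MCM6, PCNA, E2F2), where 2.4% and 1.69% of all genes were. MCM6 had -0.22 ± 0.05 (95% interval -0.33 to -0.10, adjusted p = 0.438) and E2F2 -0.26 ± 0.08 (95% interval -0.43 to -0.08, adjusted p = 0.541), with no overlap of the libraries for either. PCNA had -0.15 ± 0.08 (95% interval -0.34 to 0.04, adjusted p = 0.806) and MCM3 -0.17 ± 0.08. In these libraries 36 of the 44 genes had values below 0, with a median of -0.05 against 0.00 over all genes. Single libraries moved this: the median was -0.02 without WT peptide replicate 2 (25 below 0) or Mutant peptide replicate 3 (28 below 0), -0.08 without WT peptide replicate 1 and -0.11 without Mutant peptide replicate 2. ORC3 and CDC45 were low in replicate 2 of each group, CDC45 with 3970, 2686 and 3754 under the WT peptide, 4050, 2655 and 4174 under the Mutant peptide and 3694, 2700 and 3910 under the Scrambled peptide, a difference between replicate numbers and not between peptides.

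Other genes of replication were taken from lists chosen by function, and their counts are read beside the shares of all genes called, 20.5% in EloB KD, 42.5% in EloC KD and 1.43% with the WT peptide (36.3%, 57.0% and 16.2% with the block). Of 11 origin firing kinases and factors, 0 were called in EloB KD, 1 was higher and 4 lower in EloC KD, which is near the share of all genes, and 1 was higher with the WT peptide. With the block these were 1 higher and 0 lower, 3 higher and 4 lower, and 3 higher and 1 lower. CCNE1, the cyclin that drives CDK2 at the start of S phase, had 128.8 ± 6.73 in EloC KD and 319.3 ± 25.7 in Control KD and fell by 1.30 ± 0.13 (adjusted p = 5.31e-05). CCNE2, TOPBP1 and TICRR fell with it, and MTBP rose; the calls of TICRR and MTBP each held in 2 of 6 fits with a library left out. With the WT peptide DBF4, the activator of the CDC7 kinase, called in 5 of 6 such fits, rose by 0.34 ± 0.05 (adjusted p = 0.0122). Of 23 further replisome genes, 0 were higher and 2 lower in EloB KD (RPA1 and RPA2, of the single-strand binding complex), 1 higher and 2 lower in EloC KD (POLE3 up, TOP1 and MCM9 down), and 2 higher with the WT peptide (TOP2A and POLE4). Blocked, the counts were 0 higher and 3 lower, 4 higher and 6 lower, and 8 higher and 1 lower. RPA2 and POLE3 were each called in 2 of 6 fits with a library left out, and POLE4 in 1 of 6. Of 8 other genes of nucleotide supply, DCK fell in EloB KD by 1.37 ± 0.13, RRM2B, SAMHD1 and DUT fell in EloC KD, and DTYMK rose with the WT peptide, a call that held in 1 of 6 such fits. Blocked, 0 were higher and 2 lower in EloB KD, 1 higher and 3 lower in EloC KD, and 5 higher and 0 lower with the WT peptide. Of 16 E2F, RB and DREAM regulators, 0 were called in EloB KD and 0 with the WT peptide, and in EloC KD 4 were higher, E2F7, a repressor, among them (1.09 ± 0.13), and 4 lower, RBL2 among them (-1.62 ± 0.14), again near the share of all genes. Blocked, 2 were higher and 2 lower in EloB KD, 5 higher and 6 lower in EloC KD, and 3 higher and 1 lower with the WT peptide.

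Among all genes tested against Control KD, 20.5% were called in EloB KD and 42.5% in EloC KD (blocked, 36.3% and 57.0%). The ligase that unloads CMG was read through 11 genes, of which 0 were higher and 1 lower in EloB KD (blocked, 0 and 3) and 2 were higher and 2 lower in EloC KD (blocked, 5 and 3), the hairpin targets included. LRR1, its receptor, had 1341 ± 252 in EloB KD, 1766 ± 172 in EloC KD and 1563 ± 165 in Control KD, with -0.23 ± 0.15 in EloB KD and 0.18 ± 0.15 in EloC KD (adjusted p = 0.296 and 0.361), and its level in EloB KD was below that in EloC KD by 0.41 ± 0.15 (adjusted p = 0.0428), a call lost without EloB KD replicate 1 or EloC KD replicate 2 or 3 (adjusted p up to 0.142), with quantile scaling (0.0660), in edgeR (0.0517) and in a fit of only the 2 groups (0.0532). CUL2 had 0.05 ± 0.07 in EloB KD and 0.17 ± 0.07 in EloC KD, neither called, although the block called the second (adjusted p = 0.0468). Without the block the lower gene in EloB KD was ELOB, and ELOC was 1 of the 2 lower genes in EloC KD. Beside the hairpin targets, VCP, the unfoldase that extracts the ubiquitylated helicase, fell in EloC KD by 0.65 ± 0.09, and its cofactors NPLOC4 and FAF1 rose by 0.29 ± 0.08 and 0.56 ± 0.10. ELOB had 0.47 ± 0.20 in EloC KD and ELOC 0.01 ± 0.10 in EloB KD, neither called, although the block called ELOB (adjusted p = 0.0350). With the peptides 0 of the 11 were called without the block, while with it LRR1 (adjusted p = 0.0184) and TRAIP (adjusted p just under 0.05) were higher with the WT peptide over the Scrambled peptide. Of all genes, 1.43% were called in that comparison without the block and 16.2% with it. LRR1 had 0.18 ± 0.06 with the WT peptide and 0.12 ± 0.06 with the Mutant peptide against the Scrambled peptide and 0.06 ± 0.06 between them, and CUL2, ELOB and ELOC lay between -0.01 and 0.07 in all 3 comparisons.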

How the data were processed

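The authors deposited, for each experiment, a signal per gene and library that is a read count divided by a DESeq2 size factor. Reads were assigned to hg38 genes with featureCounts, per the submitters' processing notes; versions are not given in the sources used here. The library kit keeps strand, per the labels' protocols. With the size of 1 read estimated for each library, 100% of the deposited values came out as whole reads, within 0.05. The recovered reads served edgeR 4.0.16 (quasi-likelihood) and DESeq2 1.42.0 as alternatives. The main test was limma 3.58.1 with a trend, in R 4.3.3, on log2(normalised count + 1). Genes averaging 10 or more across an experiment's 9 libraries entered it, which were 13764 genes for the knockdowns and 13105 for the peptides, with all 44 replication genes in both. Its 3 groups were fitted together. Each of the 6 comparisons was 2-sided, with p-values adjusted by Benjamini-Hochberg across every gene that entered; the threshold was 0.05. A ± gives the standard error of a log2 fold change and the SD of a level. Exact permutation of 3 against 3 libraries cannot go below p = 0.1 and was not used.

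The labels number the replicates without saying what a number shares. Across genes, libraries of the same number deviated together from their group means. Their r was 0.236 to 0.566 among the knockdowns and 0.254 to 0.715 among the peptides. Other pairs had -0.439 to 0.0703 and -0.546 to 0.336, so among the peptides the ranges overlapped. WT peptide replicate 1 had 0.336 with Scrambled peptide replicate 3 and 0.254 with Scrambled peptide replicate 1. The numbers were taken as pairs from the data, which do not settle the pairing of peptide replicates 1 and 3. Blocked values stand beside the counts and beside some of the calls they change. Other alternatives were TMM and quantile scaling, pseudocounts of 0.5 and 10, no filter or a mean of at least 50, a fit of only the 2 groups compared, and libraries left out singly or by number. The limma step was tested on simulated counts drawn independently, with no replicate effect and no outlying library. That test therefore does not cover the shared replicate shifts seen here. Exon lengths and gene positions are from GENCODE 29. The 44 genes and the lists of related genes were chosen with earlier results of these data known. Genes given in full had an adjusted p under 0.05 in some comparison (at most 4 per role, or per other list), ELOB, ELOC, LRR1 and CUL2 were given throughout, and others were named for the blocked fit or for standing near the threshold, after their values were seen. The authors' own comparison tables were not used here.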

Additional observations from a re-analysis of the deposited data

How the results depend on the processing

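The number of the 44 genes called depended most on the replicate block, with which it was 5 in place of 2 for EloB KD against Control KD, 20 in place of 10 for EloC KD against Control KD, 16 in place of 10 for EloB KD against EloC KD, 9 in place of 1 for the WT peptide and 3 in place of 0 for the Mutant peptide against the Scrambled peptide, and 4 in place of 0 between both BC-box peptides. Quantile scaling gave 1 for EloB KD against Control KD and 2 for the WT peptide against the Scrambled peptide. DESeq2 gave 3 for the WT peptide over the Scrambled peptide and 1 over the Mutant peptide. With replicate 1 of all 3 groups left out, 1 gene (GMNN) was called in EloB KD against Control KD. With single libraries left out the counts were 0 to 2 for EloB KD and 3 to 9 for EloC KD against Control KD, 6 to 15 between the knockdowns, and 0 to 0 in each peptide comparison. No direction reversed among the 44 genes in the comparisons that called them, with or without the block. Uncalled genes did change sign, at most 21 of the 44, in EloB KD against Control KD without EloB KD replicate 1, MCM3, MCM7, GINS4 and PCNA among them. Of the 23 calls, 23 held with edgeR, DESeq2, TMM scaling, both pseudocounts, both filters and the block. Under quantile scaling 21 held, with ORC2 lost in EloB KD against Control KD (-0.18, adjusted p = 0.0839) and RFC5 lost between the knockdowns (-0.41, adjusted p = 0.0704). In a fit of only the 2 groups compared ORC4 was lost in EloC KD (0.26, adjusted p = 0.0581). That fit also called MCM4 and RRM2 lower in EloC KD, with 3 genes higher and 8 lower in total. With replicate 1 of all 3 groups left out, ORC2 (-0.25, adjusted p = 0.140) and ORC3 (-0.57, adjusted p = 0.0724) were lost in EloB KD against Control KD, RFC1 in EloC KD (0.24, adjusted p = 0.0748) and RFC5 between the knockdowns (-0.32, adjusted p = 0.158). The causes of these losses were not tested. Among the related genes, quantile scaling lost RPA2 (-0.41, adjusted p = 0.0673) and CUL4A (-0.17, adjusted p = 0.170) in EloB KD, ASF1A (0.23, adjusted p = 0.0775) in EloC KD, and LRR1 (-0.37, adjusted p = 0.0660) between the knockdowns. Without a filter ASF1A and POLE4 were lost (adjusted p = 0.0584 and 0.0546), and in edgeR CUL4A and LRR1 (adjusted p = 0.0534 and 0.0517). A fit of only the 2 groups lost RPA2, CUL4A, ASF1A and LRR1 in the same comparisons, and POLE4 and DTYMK with the WT peptide (adjusted p = 0.0990 and 0.0723).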

Other observations

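Genes that act on the replication programme from outside it were also read, from lists chosen by function. Of 6 measured CDK inhibitors, 1 was higher and 2 were lower in EloB KD, and 2 were higher and 1 lower in EloC KD; with the replicate block 2 were higher and 2 lower in each. CDKN1A, an inhibitor of CDK2, had 3333 ± 793 normalised counts in EloC KD and 1250 ± 359 in Control KD and rose by 1.43 ± 0.25 on the log2 scale (adjusted p = 0.00109 in limma). CDKN1B, a related inhibitor, rose by 0.66 ± 0.16 in EloB KD and 0.59 ± 0.16 in EloC KD, and CDKN2B, an inhibitor of CDK4 and CDK6, fell by 0.57 ± 0.14 and 1.24 ± 0.14.

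Of 9 replication checkpoint genes, 1 was called in EloB KD and 3 in EloC KD (2 and 5 with the block). WEE1, the kinase that restrains CDK activity, fell in EloB KD by 0.94 ± 0.12, and in EloC KD ATR fell by 0.53 ± 0.12 while RAD9A and CHEK1 rose by 1.28 ± 0.15 and 0.45 ± 0.14. Of 6 genes that turn over CDT1 and CDC6, DDB1 and CUL4A, of the CUL4 ligase that degrades CDT1, fell in EloB KD by 0.97 ± 0.11 and 0.27 ± 0.08, and 0 were called in EloC KD; with the block SKP2 was also lower in EloB KD and higher in EloC KD. DDB1 had 14146 ± 1770 normalised counts in EloB KD and 27592 ± 2447 in Control KD. Of 9 replication-coupled chromatin genes, 0 were called in EloB KD (3 lower with the block), and in EloC KD the histone chaperone gene ASF1A rose by 0.26 ± 0.10 and its paralogue ASF1B fell by 0.69 ± 0.24. The calls of CHEK1, CUL4A and ASF1A each held in 1 of the 6 fits with a library left out, with adjusted p up to 0.0710, 0.114 and 0.172, and that of ASF1B in 2 of 6 (adjusted p up to 0.136). CDKN2A in EloB KD held in 2 of 6, CDKN1B and CDKN2B there in 4 of 6. The shares of all genes called were 20.5% in EloB KD and 42.5% in EloC KD (36.3% and 57.0% with the block).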
